A study of Mus musculus with 6 samples.

Results

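The genes described here are 6 genes of intestinal calcium uptake and vitamin D response, S100g, Trpv6, Atp2b1, Vdr, Rxra and Cyp24a1, chosen by symbol and found among the 24736 gene symbols of the deposited table. Crypts were isolated from the whole length of the gut of 3 WT and 3 Mtg16-/- mice, all males of 12 weeks and otherwise untreated, and total RNA depleted of ribosomal RNA was sequenced as 1 library per mouse. The labels describe the knockout as induced by CRISPR, whereas by the methods the Mtg16-/- line came from another laboratory, and which applies was not resolved. No Cre or tissue-specific promoter is named for the knockout. The comparison asks whether loss of the co-repressor MTG16 goes with a change in the genes by which the epithelium takes up calcium and answers vitamin D. Expression is given as TPM, a measure of transcripts in which reads are divided by transcript length and scaled to 1 fixed total per library, and which keeps no read number, so that the depth behind a value is unknown.

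Calcium crosses the absorptive cell in steps. TRPV6, a calcium channel of the brush border, admits it at the apical membrane, calbindin-D9k (encoded by S100g) binds it and carries it through the cytosol, and the plasma membrane calcium pump PMCA1 (encoded by Atp2b1) expels it at the basolateral membrane. The active hormone calcitriol sets the pace of this route through the vitamin D receptor (Vdr), a nuclear receptor that binds DNA together with a retinoid X receptor such as RXRα (Rxra). Cyp24a1, which encodes the mitochondrial hydroxylase that starts the breakdown of calcitriol, is a classical target of the receptor. In mice the route is known to be strongest in the duodenum.

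The sequences before the annotated starts of S100g, Trpv6 and Vdr are shown because S100g varied most between libraries, Trpv6 was almost unexpressed and Vdr had the highest level of the 6 genes. Each runs 5′ to 3′ on the minus strand over 250 bases before the RefSeq start and the first 20 from it (GRCm38.p6), with 3 short motifs or their reverse complements in capitals. These are AGGTCA (the hexamer that nuclear receptors recognise), TATAAA (the letters of a TATA box) and GGGCGG (those of a GC box), and none of them overlaps another in the windows shown. They lie at chrX:162964580-162964849 for S100g, chr6:41636386-41636655 for Trpv6 and chr15:97908277-97908546 for Vdr.
S100g: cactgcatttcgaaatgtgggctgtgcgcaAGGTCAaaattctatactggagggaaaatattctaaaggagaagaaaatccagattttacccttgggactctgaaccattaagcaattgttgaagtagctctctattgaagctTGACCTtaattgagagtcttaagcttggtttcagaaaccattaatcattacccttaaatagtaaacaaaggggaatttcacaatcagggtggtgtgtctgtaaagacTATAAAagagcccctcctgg
Trpv6: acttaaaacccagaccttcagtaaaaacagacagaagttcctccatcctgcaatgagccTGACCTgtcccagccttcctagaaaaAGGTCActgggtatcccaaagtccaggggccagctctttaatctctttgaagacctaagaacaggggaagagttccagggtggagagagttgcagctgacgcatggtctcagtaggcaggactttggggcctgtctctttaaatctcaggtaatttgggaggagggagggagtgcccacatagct
Vdr: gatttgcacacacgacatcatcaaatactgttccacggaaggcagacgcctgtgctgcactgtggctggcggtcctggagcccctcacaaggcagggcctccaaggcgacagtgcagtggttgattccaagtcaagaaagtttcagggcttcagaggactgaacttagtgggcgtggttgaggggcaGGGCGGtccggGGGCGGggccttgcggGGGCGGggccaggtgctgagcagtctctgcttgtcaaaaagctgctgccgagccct

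The S100g and Trpv6 windows each held AGGTCA 2 times, counting both strands, and 15.0% of the 32851 RefSeq windows of this length held it at least once. S100g also held 1 TATAAA (12.9% of all windows), which began at the annotated start. The Vdr window held no AGGTCA and 3 GGGCGG, a string found at least once in 34.1% of all windows. The windows of Atp2b1 held 4 and 3 GGGCGG at its 2 annotated starts. Of the 2 windows of Rxra, the first held 3 GGGCGG and the second 2 AGGTCA. The element that VDR and RXR bind together was searched only as a pair of exact AGGTCA in tandem with a spacer of 3 bases. This string was in none of the members' windows and in 2 of all 32851. A string this rare cannot show whether a window lacks such an element. These are matches of letters, with no measurement of binding in these libraries. Cyp24a1 was not matched in the promoter table.

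Differences between the genotypes were tested by limma on the log2(TPM + 1) scale. The fit took in 12268 genes, those averaging 1 TPM or more across the 6 libraries, and each adjusted p is corrected over all of them (Benjamini-Hochberg). Of the 6 genes, S100g, Atp2b1, Vdr and Rxra passed this filter, and Trpv6 and Cyp24a1 did not. None of the 4 was called at an adjusted p under 0.1, where 0.0326% of all tested genes were called. At an unadjusted p under 0.05 none of the 4 was higher and none lower, beside 6.53% and 8.05% of all tested genes. The groups overlapped in each of the 4, while they lay apart with the libraries labelled Mtg16-/- higher in 9.94% and lower in 11.1% of the tested genes. Cbfa2t3, which encodes MTG16, had a TPM of 3.67 to 6.69 in WT and 3.23 to 6.43 in the libraries labelled Mtg16-/-, so that this gene did not tell the genotypes apart. The stem cell genes Lgr5 (fold 1.78) and Olfm4 (fold 1.56) were higher and the enterocyte genes Fabp1 (fold 0.251) and Apoa4 (fold 0.277) lower in the libraries labelled Mtg16-/-, each with the groups apart and uncalled. Directions below follow the labels. A gene-level TPM does not show whether an exon is missing. The libraries were epithelial by their markers. Epcam, Cdh1, Krt8, Krt18 and Krt19 summed to between 7990 and 8821 TPM, against 3.79 to 8.74 for 9 stromal and muscle markers and 44.1 to 93.2 for 7 immune cell markers. Enterocyte markers differed between libraries. The TPM summed over 15 of them ran from 13999 to 39606 in WT and from 7211 to 14481 in Mtg16-/-, with WT replicate 1 the highest. All 15 had a log2 fold change below 0, 9 of them at an unadjusted p under 0.05, and none was called. The paper reports enterocyte markers as significantly reduced in its own comparison of these genotypes. A gene left uncalled here is therefore not shown to be unchanged. Markers of stem, Paneth and enteroendocrine cells lay on the higher side. All 8 stem cell markers had a log2 fold change above 0 (median 0.45, groups apart in 4), as did all 7 Paneth cell markers (median 0.96, apart in 5) and all 7 enteroendocrine markers (median 0.62, apart in 6). Of the 7 goblet cell markers 2 were above 0 and 5 below (median -0.43, groups apart in 2, both lower). Of 5 tested colon markers 4 were above and 1 below (groups apart in 1, higher). None of these was called. The part of these shifts in the members' levels was not tested. In bulk RNA, fewer cells of a type and less RNA per cell cannot be told apart.

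**Figure D1:**
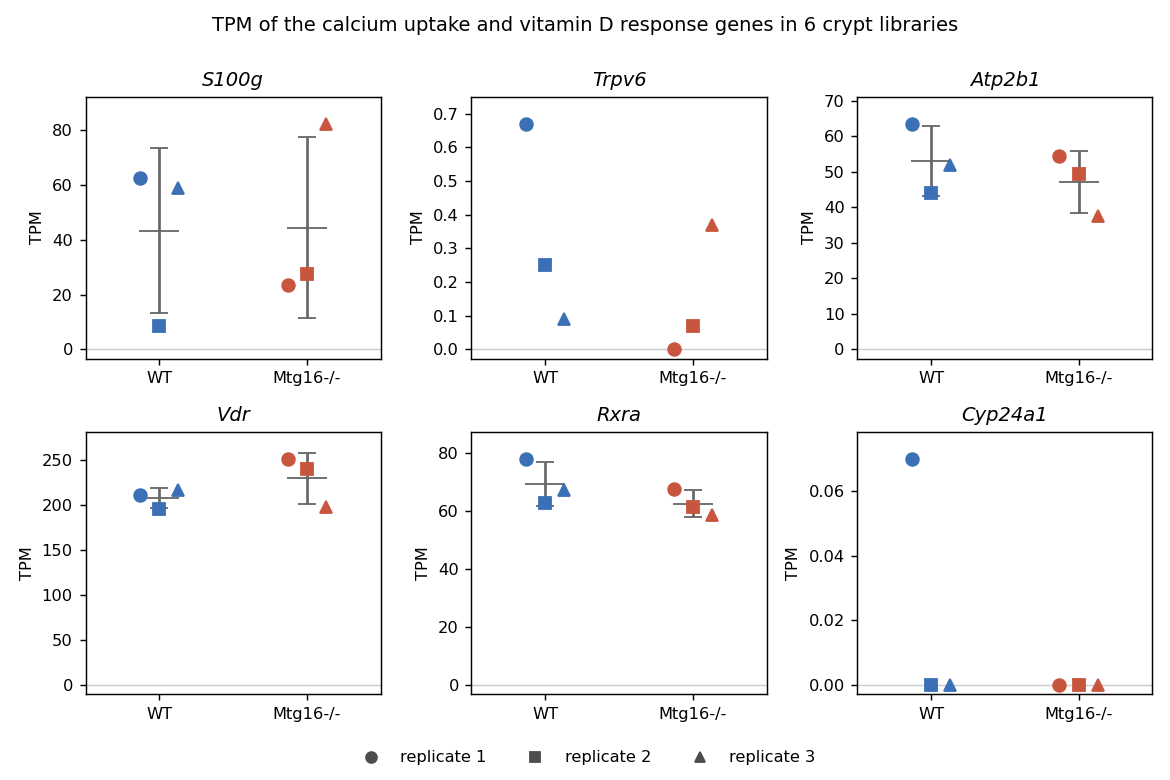
TPM (vertical axes, linear, a separate scale for each gene) of the 6 genes in WT and Mtg16-/- crypts. Each symbol is the library of 1 mouse, by replicate number, and the horizontal line and bar give the mean ± SD of 3 libraries, left out for Trpv6 and Cyp24a1. The groups overlap for every gene, S100g runs from 8.64 to 82.4 TPM, and Trpv6 and Cyp24a1 stay under 1 TPM.

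Entry across the brush border was the step with the least RNA. Trpv6 had a TPM of 0.67, 0.25 and 0.09 in WT replicates 1 to 3, and of 0, 0.07 and 0.37 in Mtg16-/- replicates 1 to 3. The highest value was in WT and the groups overlapped (exact permutation test on log2(TPM + 1), two-sided, p = 0.5). Its difference on the log2(TPM + 1) scale was -0.21 (Mtg16-/- minus WT), and it was -0.89 with a pseudocount of 0.1, so that the size of this difference depends on the pseudocount. Tested without the filter on low values, limma gave a 95% interval of -0.64 to 0.22 (adjusted p = 0.648). Trpv5, the related channel gene known from the kidney, was listed at 0 in all 6 libraries. Cacna1d, which encodes a voltage-gated calcium channel, had a TPM between 0.23 and 0.48. None of these 3 genes of apical entry reached the filter. Trpv6 lies on chromosome 6 from 41620619 to 41636405 (RefSeq, GRCm38.p6).

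S100g, the cytosolic calcium carrier, was the most variable of the 6 genes, with overlapping levels in both genotypes. Its TPM was 62.5, 8.64 and 59.1 in WT replicates 1 to 3. In Mtg16-/- replicates 1 to 3 it was 23.4, 27.5 and 82.4. The lowest library was WT replicate 2 and the highest Mtg16-/- replicate 3, a ratio of 9.54, and the other 4 libraries lay between them. The means were 43.4 ± 30.1 in WT and 44.4 ± 32.9 in Mtg16-/- (SD, n = 3 each). The log2 fold change was 0.22 (SE 0.76 and adjusted p = 0.909 in limma), with a 95% interval from 0.347 to 3.91 on the fold scale. Mice of the same genotype differed more than the groups did. The residual SD of S100g within genotypes was 1.29 on the log2 scale, above that of 99.2% of the tested genes, whose median was 0.21. Without WT replicate 2 the log2 fold change was -0.67, and without Mtg16-/- replicate 3 it was -0.33, so that the sign rested on each of these libraries. S100g lies on chromosome X from 162961992 to 162964599, and its annotation overlaps that of Ctps2 on the opposite strand. Ctps2, which encodes a CTP synthase, had a TPM of 5.45, 5.52 and 7.23 in WT and of 7.81, 9.02 and 8.38 in Mtg16-/-, with the groups apart and far below most S100g values. How the reads were assigned to strands is not given in the sources used here, so reads shared by the 2 genes cannot be told apart.

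Crypts from the whole gut contain duodenum and ileum, and genes of the ileum also differed between mice of 1 genotype. Fabp6, the ileal bile acid-binding protein gene, had a TPM of 1168, 1926 and 735 in WT replicates 1 to 3. In Mtg16-/- replicates 1 to 3 it was 2056, 1880 and 869. In each genotype the library with the lowest S100g, WT replicate 2 and Mtg16-/- replicate 1, had the highest Fabp6. The other ileum markers did not all follow it. In WT, Slc51a, Slc51b and Guca2a were highest in replicate 1, and Slc10a2 was 23.8, 23.9 and 12.1 TPM. In Mtg16-/- each of the 7 was highest in replicate 1. The 7 markers summed to 2306, 2980 and 1444 TPM in WT and to 3236, 2690 and 1679 TPM in Mtg16-/-, sums that are mostly Fabp6. Of these 7 markers, 4 had a log2 fold change above 0, with the groups apart in Osr2 (0.41, unadjusted p = 0.0167 in limma), and none was called. The 9 markers of the proximal small intestine summed to 1867, 737 and 1001 TPM in WT, where WT replicate 2 was lowest as for S100g. In Mtg16-/- they summed to 727, 443 and 541 TPM, where the order differed from that of S100g. These sums are mostly Gsta1, Adh6a and Lct. Lct is also 1 of the 15 enterocyte markers, whose sum was lowest in the same WT library. The part of the enterocyte markers in the values of the proximal markers was not tested. Of these 9, 8 had a log2 fold change below 0, 6 of them at an unadjusted p under 0.05 in limma (8.05% of all tested genes). Hes1, a Notch target gene, was the exception with a log2 fold change of 0.43 (unadjusted p = 0.0391). None was called. Hoxb13, a marker of the distal colon, was listed at 0 in every library. The part of these markers in the spread of S100g was not tested.

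**Figure D2:**
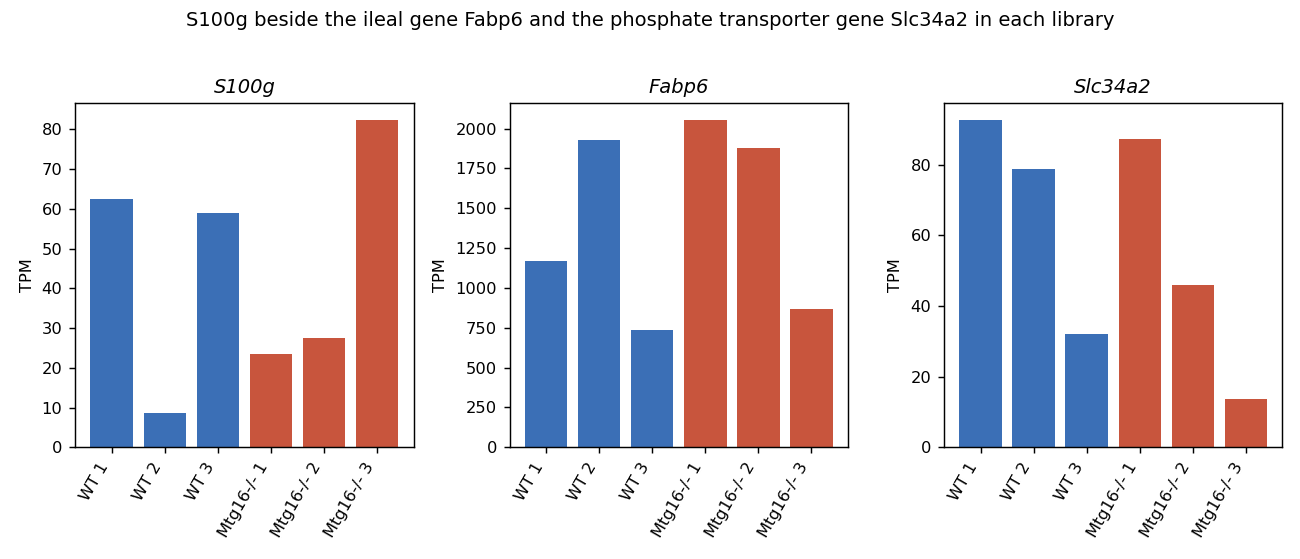
TPM (linear axes) of S100g, of the ileal gene Fabp6 and of Slc34a2, which encodes a sodium-phosphate transporter, as 1 bar per library, with WT in blue and Mtg16-/- in red. WT replicate 2 has the lowest S100g (8.64) and the highest Fabp6 of its genotype (1926). Mtg16-/- replicate 3 has the highest S100g (82.4) with the lowest Fabp6 (869) and Slc34a2 (13.8) of its genotype. In WT the order differs for Slc34a2, since WT replicate 1 has the highest S100g (62.5) and the highest Slc34a2 (92.7) of its genotype.

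The calcium-binding genes Calm2, Calm3 and Calml4 stood above S100g in every library and varied less. Calm2 and Calm3, which encode the calcium sensor calmodulin, were each between 5.67 and 47.6 times the TPM of S100g in the same library. Calm2 had a log2 fold change of 0.21 and Calm3 of 0.10 (limma adjusted p of 0.544 and 0.723). Calml4, a calmodulin-like gene of the microvillus, had a log2 fold change of -0.18 (limma adjusted p = 0.595). Calb1, the larger calbindin, was listed at 0 in all 6 libraries and Calb2 stayed at or below 0.26 TPM. None of the 4 tested genes of this list, S100g included, was called.

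Atp2b1, the basolateral calcium pump, was expressed in every library with overlapping levels in both genotypes. Its TPM was 63.5, 43.9 and 52.0 in WT replicates 1 to 3 and 54.3, 49.4 and 37.6 in Mtg16-/- replicates 1 to 3. WT replicate 1 was highest, Mtg16-/- replicate 3 was lowest, and the remaining libraries of the groups lay among each other. Its residual SD was above that of 66.6% of the tested genes. The log2 fold change was -0.17 (SE 0.19 and adjusted p = 0.675 in limma), with a 95% interval of 0.660 to 1.20 on the fold scale. Atp2b1 also held nearly all of the RNA of the plasma membrane calcium pump genes. It made up between 97.5% and 98.5% of the TPM summed over Atp2b1, Atp2b2, Atp2b3 and Atp2b4 in each library, and its share overlapped between the genotypes (exact permutation test, two-sided, p = 0.7). Atp2b4 had a TPM between 0.42 and 1.43, and the other pump genes were below. The sodium-calcium exchanger gene Slc8a1 was between 0.18 and 0.35 TPM. Atp2b1 lies on chromosome 10 from 98914630 to 99026143.

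Passage between cells runs through claudins. Cldn2 and Cldn15 encode pore-forming claudins, and Cldn12 one known for calcium. Cldn12 had a TPM of 19.8, 19.7 and 24.0 in WT and of 25.7, 25.5 and 28.5 in Mtg16-/-. All 3 Mtg16-/- libraries were above the WT libraries, with a log2 fold change of 0.32 (SE 0.13 and adjusted p = 0.325 in limma, unadjusted 0.0421). Cldn2 had a log2 fold change of -0.15 and Cldn15 of -0.30 (limma adjusted p of 0.697 and 0.422), and their groups overlapped. None of the 3 claudins was called.

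Vdr had the highest level of the 6 genes, above 97.5% of all gene symbols by its mean TPM. Its TPM was 212, 196 and 217 in WT replicates 1 to 3 and 251, 241 and 198 in Mtg16-/- replicates 1 to 3. Both of the highest libraries were Mtg16-/-, but Mtg16-/- replicate 3 lay among the WT libraries. The means were 208 ± 10.9 and 230.01 ± 28.5 TPM (SD, n = 3 each). The log2 fold change was 0.14 (SE 0.14 and adjusted p = 0.639 in limma), with a 95% interval of 0.886 to 1.37 on the fold scale. Vdr lies on chromosome 15 from 97854427 to 97908296.

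Rxra, the partner of the vitamin D receptor, had a TPM of 77.8, 62.8 and 67.2 in WT and of 67.6, 61.2 and 58.4 in Mtg16-/-. The highest library was WT and the lowest Mtg16-/-, and the 4 libraries between them were mixed. The log2 fold change was -0.14 (SE 0.13 and adjusted p = 0.601 in limma), with a 95% interval of 0.737 to 1.11 on the fold scale. Rxra made up 63.3% to 72.3% of the TPM summed over Rxra, Rxrb and Rxrg in WT and 59.8% to 64.3% in Mtg16-/-, which overlapped (exact permutation test, two-sided, p = 0.3). Rxrb had a TPM between 29.8 and 39.2, and Rxrg was listed at 0 in all but 1 library. Rxra lies on chromosome 2 from 27676445 to 27763319.

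The ratio of Vdr to Rxra TPM was 2.72, 3.12 and 3.23 in WT and 3.72, 3.94 and 3.38 in Mtg16-/-. The groups did not overlap (exact two-sided permutation test on the log2 ratio, p = 0.1, below which 3 mice against 3 cannot go). This was the only one of 7 ratios of members and related genes, computed after the values were seen, in which they lay apart, and its p adjusted over the 7 was 0.7. Within libraries, Rxra was above Atp2b1 in 6 of 6 and Vdr above Rxra in 6 of 6, so that the order Vdr, Rxra, Atp2b1 held in every mouse. S100g was above Atp2b1 in 2 of 6 libraries and could not be placed in this order. Trpv6 and Cyp24a1 were below all of these.

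The coregulators of nuclear receptors showed no called change. Among the tested genes were the coactivators Ncoa1, Ncoa2, Ncoa3 and Med1, and the corepressor Ncor1, which is also a known partner of MTG proteins. Ncor1 had a log2 fold change of -0.29 (limma adjusted p = 0.436). The 4 coactivators lay between -0.14 and 0.02 on the log2 scale. Of the 8 tested genes of this list, Vdr, Rxra and Rxrb included, 3 were above 0 and 5 below.

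Cyp24a1 gave almost no signal. It was listed at 0.07 TPM in WT replicate 1 and at 0 in the other 5 libraries, so no fold change is given. It lies on chromosome 2 from 170482957 to 170497145, overlapping the annotation of Pfdn4 on the opposite strand. Of the other genes of vitamin D metabolism, Cyp27b1, which encodes the enzyme that forms calcitriol, had a TPM between 0.07 and 0.33. Cyp2r1, one of the hydroxylases of the liver, had a mean TPM of 1.05 in WT and 1.35 in Mtg16-/-. Cyp27a1, which encodes a sterol hydroxylase that can also act on vitamin D, had a TPM of 42.8, 18.5 and 23.1 in WT and 23.5, 15.3 and 10.6 in Mtg16-/-, with WT replicate 1 highest and the other libraries partly mixed. Its log2 fold change was -0.72 (SE 0.35 and adjusted p = 0.385 in limma). Pdia3, a protein disulfide isomerase of the endoplasmic reticulum that has also been described as a membrane receptor for calcitriol, had a TPM of 460, 389 and 411 in WT and 318, 299.9 and 326 in Mtg16-/-. The 3 WT libraries were above the Mtg16-/- libraries, with a log2 fold change of -0.41 (SE 0.13 and adjusted p = 0.272 in limma). Dhcr7, a cholesterol synthesis gene whose substrate is also the precursor of vitamin D, had a log2 fold change of -0.36 with groups apart (limma adjusted p = 0.312). Cubn, which encodes a receptor for vitamin carriers, had a log2 fold change of -0.09 (limma adjusted p = 0.945). Gc and Lrp2 were at or below 0.10 TPM.

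Other genes known to answer vitamin D in the intestine were mostly on the lower side in Mtg16-/- without being called. Cyp3a13, a cytochrome P450 gene, had a TPM of 401, 117 and 153 in WT and 119, 79.8 and 68.8 in Mtg16-/-, a log2 fold change of -1.14 (SE 0.43 and adjusted p = 0.307 in limma). Its WT replicate 2 lay just below Mtg16-/- replicate 1, and WT replicate 1, with the most enterocyte marker RNA, was highest. Cyp3a11, a related gene, had a log2 fold change of -0.42, and without WT replicate 1 it was 0.17. Slc30a10, a manganese exporter gene, had a TPM of 12.3, 3.16 and 4.87 in WT and 4.01, 2.91 and 2.17 in Mtg16-/- (log2 fold change -0.79, limma adjusted p = 0.401). WT replicate 1 carried much of these values. Without it the log2 fold change was -0.62 for Cyp3a13, -0.32 for Slc30a10, -0.38 for Cyp27a1, -0.41 for Slc20a1 and -0.16 for Cldn15. Slc20a1, a phosphate transporter gene, had a TPM of 45.2, 27.0 and 31.4 in WT and 24.6, 22.2 and 18.6 in Mtg16-/-. The groups lay apart, with a log2 fold change of -0.62 (SE 0.20 and adjusted p = 0.281 in limma). Slc34a2 had a TPM of 92.7, 78.7 and 32.0 in WT and 87.1, 45.8 and 13.8 in Mtg16-/-, with overlapping groups (log2 fold change -0.67, limma adjusted p = 0.629). Without Mtg16-/- replicate 3 the log2 fold change of Slc34a2 was 0.035. Abcb1a, a drug efflux pump gene, had a log2 fold change of 0.14 (limma adjusted p = 0.834). The part of the enterocyte markers, which were lower in Mtg16-/- as well, in these values was not tested.

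Over all the calcium and vitamin D lists, 27 of 48 genes passed the filter and none was called. At an unadjusted p under 0.05, 1 was higher (Cldn12) and 4 were lower (Cyp3a13, Pdia3, Dhcr7 and Slc20a1), and the groups lay apart in 1 higher and 3 lower genes. Of all tested genes 6.53% and 8.05% passed the same limit, and 9.94% and 11.1% lay apart. The 3 lower genes of 27 are also 11.1%. The median log2 fold change was -0.14, beside -0.03 for all tested genes. Without the members, 23 genes were tested and 7 were above 0 and 16 below, with a median of -0.15. The 4 tested members had 2 values above and 2 below 0.

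**Figure D3:**
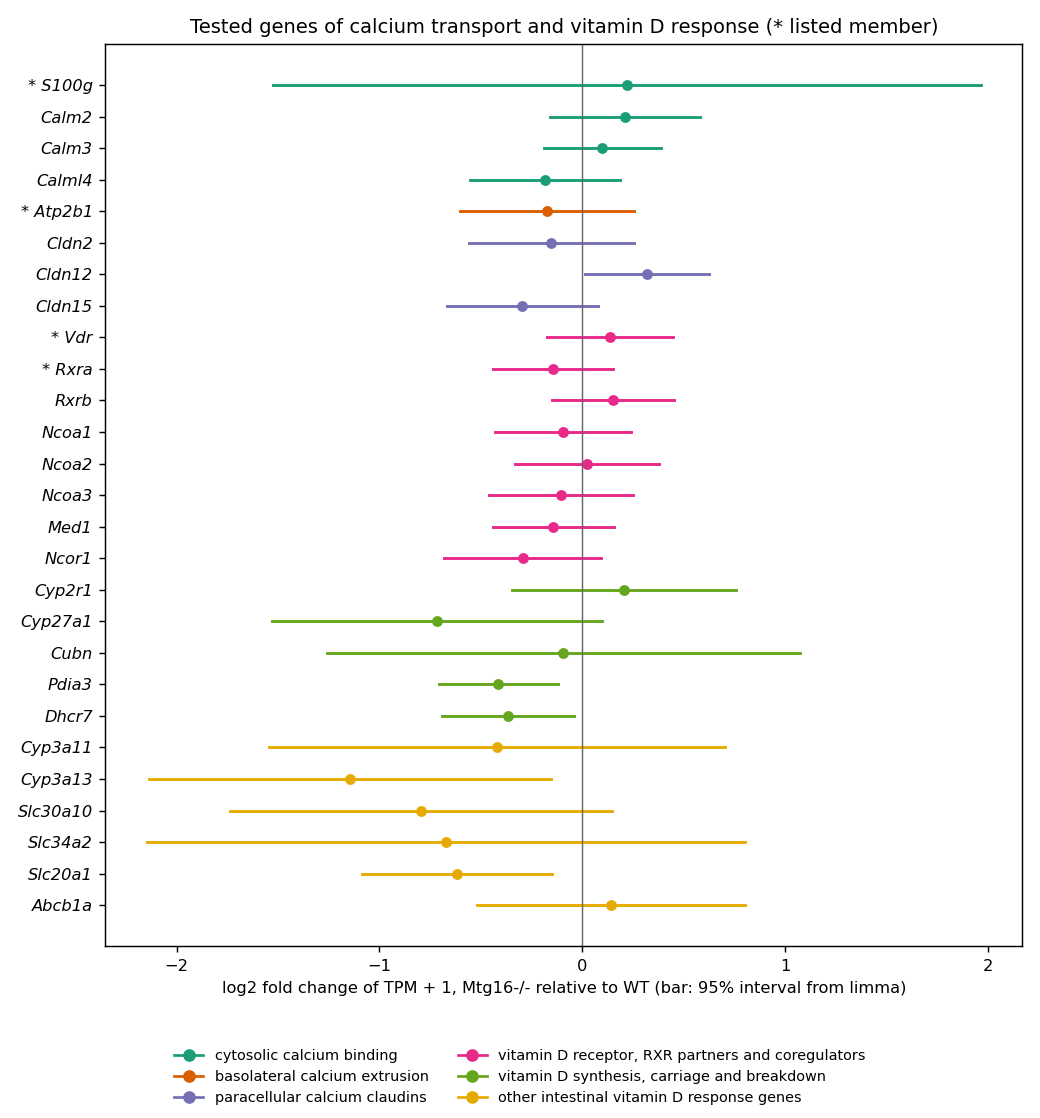
Log2 fold change of TPM + 1 (horizontal axis, Mtg16-/- relative to WT) of the 27 tested genes of calcium transport and vitamin D response, with the 95% interval from limma as a bar and colours for the lists. The intervals of the 4 members marked with a star all cross 0, S100g has an interval from -1.53 to 1.97, and the intervals of Pdia3, Dhcr7, Cyp3a13 and Slc20a1 lie below 0 and that of Cldn12 above 0 before adjustment.

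Each gene was also set against the enterocyte markers, as its log2(TPM + 1) minus the mean log2(TPM + 1) of the 15 markers in the same library. That mean itself differed by -1.13 (Mtg16-/- minus WT, log2), so that a gene with a level that does not move gains about as much on this scale. Vdr lay at -2.89, -1.50 and -1.70 in WT and at -1.23, -0.51 and -0.55 in Mtg16-/-, a difference of 1.27 with the groups apart. Rxra and Atp2b1 also lay apart, with differences of 0.98 and 0.96, while S100g (1.35), Trpv6 (0.92) and Cyp24a1 (1.10) overlapped. The median difference over all tested genes was 1.10, and 37.2% of them lay apart with Mtg16-/- higher. The members' differences lay on both sides of that median, and nothing particular to them is read from this scale. Leaving out each mouse in turn moved the difference of S100g between 0.58 and 1.99, and without WT replicate 1 that of Vdr was 0.84, of Rxra 0.63 and of Atp2b1 0.65.

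The genes whose pattern over the 6 libraries was most like that of a member were found by the root mean square difference between log2(TPM + 1) profiles, each centred on its own mean. For S100g they were Klk1b5 (0.54), a kallikrein gene, Gal3st2b (0.68), a sulfotransferase gene, and Dbp (0.69), a transcription factor gene of the circadian output. Dbp had a TPM of 57.4, 16.6 and 33.4 in WT and 29.1, 29.3 and 35.2 in Mtg16-/-, lowest in WT replicate 2 as S100g was. Klk1b5 stayed at or below 2.01 TPM. For the members that varied less than S100g the distances were shorter. Pdpr, 1110002L01Rik and Dync1li2 lay at 0.038, 0.041 and 0.049 from Vdr. Zfp768, Dnajb12 and Ptdss1 lay at 0.022, 0.029 and 0.030 from Rxra, and Nbr1, App and Nlrc4 at 0.033, 0.037 and 0.043 from Atp2b1. Each of these genes shared the highest or the lowest library with its member, which follows in large part from their choice by profile. These distances rest on 6 libraries and are a description of likeness only.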

How the data were processed

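RNA sequencing of crypts from 3 WT and 3 Mtg16-/- mice was used. Crypts were isolated in cold EDTA (2 mM, 30 min), and libraries were made from 200 ng of ribosome-depleted RNA with 14 PCR cycles. The authors deposited TPM values per gene symbol, estimated with RSEM. The submitters' processing notes name mm10, cutadapt 1.9.1, STAR 2.5.2a, RSEM 1.3.0 and DESeq2 1.12.3. TPM keeps no read number, so a count test was not used and depth is unknown. Libraries are separate mice by the study's design text.

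Values were transformed as log2(TPM + 1), and 12268 genes averaging 1 TPM or more across the 6 libraries were fitted with limma 3.58.1 (R 4.3.3, intensity trend, no covariates), with Benjamini-Hochberg adjustment and calls under 0.1, the limit of the authors' published list. At this limit 4 of the 12268 genes were called, and an uncalled gene is not shown to be unchanged. The added 1 makes fold changes of low genes too small. Single values were compared by exact permutation tests (SciPy 1.17.1). The fit was tested on simulated data in which 200 of 12268 genes were changed by a fold of 4. It recovered 183 of them and made 28 false calls. Folds as small as those of the members were not simulated. Each simulated gene varied independently, so variation shared between genes, such as that of the enterocyte markers, was not simulated either. The members and lists were chosen with earlier results of these data known, and lists come from general knowledge. A few list genes are not reported here and were left out of the list counts. Named are the 6 members, genes of the calcium, vitamin D and marker lists where a list is described, and the 3 genes nearest in profile to each tested member. Alternatives were no filter or one at a mean of 5 TPM, a pseudocount of 0.1, quantile normalization or median-ratio rescaling, a fit with no trend, a replicate block, calls under 0.05 and leaving out each mouse. Positions and promoter windows are from RefSeq GRCm38.p6, the assembly that mm10 stands for, and overlapping genes from GENCODE vM21.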

Additional observations from a re-analysis of the deposited data

How the results depend on the processing

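Under all 14 alternatives the 4 tested members stayed uncalled, with limma adjusted p between 0.542 and 0.920 for S100g, 0.430 and 0.841 for Vdr, 0.485 and 0.862 for Rxra, and 0.495 and 0.976 for Atp2b1. Vdr kept its sign in each, as did Rxra and Atp2b1. Leaving out each mouse in turn moved the log2 fold change of S100g between -0.67 and 0.69, of Vdr between 0.07 and 0.24, of Rxra between -0.21 and -0.06, of Atp2b1 between -0.30 and -0.02 and of Trpv6 between -0.35 and -0.04. With a pseudocount of 0.1 the difference of Trpv6 was -0.89, and relative to the enterocyte markers 0.24, since a smaller pseudocount stretches low values. Trpv6 and Cyp24a1 were tested only without the filter. Cyp24a1, listed at 0 in 5 libraries, had a limma adjusted p of 0.806 there, and no fold change is read from it. The number of called genes, 4, was 0 without the filter (2187 at an unadjusted p under 0.05), 15 at a mean TPM of at least 5, 1 with median-ratio rescaling and with quantile normalization, 0 without the intensity trend (1754 unadjusted), 0 at an adjusted p under 0.05 (1789 unadjusted) and between 0 and 20 with each mouse left out. Without WT replicate 1 it was 20, and without Mtg16-/- replicate 1, 2 or 3 it was 1, 2 and 0 (1062 unadjusted for the last). The cause of these shifts was not tested. The calcium and vitamin D genes had no call in these settings. Their signs changed when a mouse was left out for Cldn2 (-0.31 to 0.019), Ncoa1 (-0.17 to 0.019), Ncoa2 (-0.067 to 0.15), Ncoa3 (-0.19 to 0.040), Cubn (-0.43 to 0.41), Cyp3a11 (-0.91 to 0.17), Slc34a2 (-1.25 to 0.035) and Abcb1a (-0.035 to 0.46), and Cubn was 8.9e-04 after quantile normalization. The replicate numbers of the labels do not mark a shared animal, and same-numbered libraries deviated together with r = 0.429, 0.0753 and 0.237 across genes, with WT replicate 2 closer to Mtg16-/- replicate 3 (r = 0.198) than to its own number. The replicate block called 1201 genes out of 12268, with 816 lower and 385 higher in Mtg16-/-. In the calcium and vitamin D lists it called 5 out of 27, all lower (Cyp27a1, Cyp3a13, Pdia3, Slc20a1 and Slc34a2). None of the 5 was a member. Whether the lists differ in this from the rest of the genes was not tested. TPM gives no read number, so a floor for Trpv6 and Cyp24a1 cannot be set, and 3 mice per group limit what can be seen of S100g.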

Other observations

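Among the genes of the calcium and vitamin D lists that did not reach the filter, 3 of 21 had groups that did not overlap, or 3 of the 18 with a value above 0 in at least 1 library (16.7%). Among all genes below the filter with such a value the share was 9.89%. They were singled out after their values were seen. Nr0b2, which encodes the orphan receptor SHP, a repressor of other nuclear receptors and a target of the bile acid receptor, had a TPM of 1.41, 1.93 and 1.49 in WT and of 0.25, 0.17 and 0.15 in Mtg16-/-. Every WT library lay above every Mtg16-/- library, and in a limma fit without the filter its log2 fold change was -1.13 (SE 0.12 and adjusted p = 0.130), short of the limit of 0.1. Its mean TPM over the 6 libraries, 0.90, is just below the filter at 1. Slc8a1 had a TPM of 0.20, 0.18 and 0.18 in WT and of 0.35, 0.32 and 0.26 in Mtg16-/- (limma adjusted p = 0.436 without the filter). Casr, the calcium-sensing receptor gene, had a TPM of 0.03, 0.09 and 0.10 in WT and of 0.12, 0.19 and 0.12 in Mtg16-/- (limma adjusted p = 0.573 without the filter). Values this low are given to 2 decimals and rest on an unknown number of reads.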
